A study of Mus musculus with 10 samples.

Results

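The E2F and retinoblastoma family was described here through 10 genes chosen by name: E2f1, E2f2 and E2f3, which encode activating E2F factors, E2f4, E2f7 and E2f8, which encode repressing ones, Rb1, Rbl1 and Rbl2, which encode the pocket proteins RB, p107 and p130, and Tfdp1, which encodes DP1, the partner that most E2F factors need to bind DNA. All 10 were among the 52097 genes of the deposited table, and all 10 were among the 14007 genes that averaged 1 FPKM or more over the 10 libraries and were tested. RNA came from about 5000 sorted haematopoietic stem cells of mouse bone marrow per sample (the CD150+ CD48- cells of the Lin- Sca-1+ c-Kit+ fraction), copied and amplified with the Smart-Seq V4 kit. The 5 CKO libraries have the genotype label KO and titles of the form Dhx16_CKO, a knockout of the gene for a splicing helicase of the DEAH type. The 5 WT libraries are controls with the genotype label WT and titles of the form Dhx16_fl, which point to a floxed gene. The strain, age and sex of the mice, the Cre driver, any inducing treatment and the number of animals behind a library are not given in the sources used here, so p-values measure only the spread between libraries.

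Values are FPKM (fragments per length of transcript and per total of fragments), which allow levels of different genes to be compared per length. Changes are CKO minus WT on the log2(FPKM + 1) scale, which understates the change of genes near 1 FPKM, and a gene was called changed at a limma adjusted p (Benjamini-Hochberg over all 14007 genes) under 0.05. Library totals were 877099 to 966648 FPKM in CKO and 770789 to 957520 FPKM in WT libraries. The number of genes at 1 FPKM or more was 12687 to 13722 in CKO and 13938 to 15102 in WT libraries. Read depth is unknown. Dhx16 itself was at 10.88, 10.56, 8.80, 7.10 and 10.13 FPKM in the CKO libraries (CKO7, CKO8, CKO9, CKO12 and CKO13) and at 22.63, 20.53, 14.58, 15.50 and 14.33 FPKM in the WT libraries (WT2 to WT6). Per-library values below follow the same order, and whether the values of Dhx16 cover the deleted part of the gene is not known. Among all tested genes 12.6% were called higher and 33.8% lower, and the median change was -0.26. These figures depend on how the libraries are scaled: of all calls, 27.2% were higher with the deposited values themselves, 67.6% with median-of-ratios factors, 62.7% after a shift to the fold changes of the authors, 41.3% with upper-quartile factors and 18.2% with equal totals. Over all genes the median was 0.06, 0.03, -0.14 and -0.38 under the last 4 of these scalings, in that order.

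E2F factors control the genes that cells need to enter S phase. In resting cells the repressing E2F4, joined to p130 or p107 and the MuvB proteins in the DREAM complex, keeps these genes low, and RB holds the activating E2F factors in check. When cyclin-dependent kinases phosphorylate the pocket proteins, the activators are released, and E2F7 and E2F8, which bind DNA without a DP partner, later turn the same genes down. In mice the family is known to act in blood: pocket proteins restrain the cycling of stem cells, and E2f2, E2f4 and Rb1 are needed for normal red cell formation.

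Several family genes are E2F targets themselves, and the promoters of 3 genes that rose are shown because each holds a core E2F motif. RefSeq promoter windows (GRCm38.p6, 250 bases before to 50 after the start) were found for 8 of the 10 members, all but E2f4 and Rb1, in 11 windows. The capitals mark the core motif, searched on both strands in 4 forms, which were TTCCCGC, then TTGGCGC, then TTCGCGC, then TTGCCGC. It begins 17 bases before the start of Rbl1, 43 or 96 bases before the 2 RefSeq starts of Tfdp1, where it reads on the other strand (the window of the first start is shown), and 111 bases before that of E2f8, where it overlaps a CCAAT box read on the other strand.
Rbl1 (chr2:157204485-157204784, minus strand): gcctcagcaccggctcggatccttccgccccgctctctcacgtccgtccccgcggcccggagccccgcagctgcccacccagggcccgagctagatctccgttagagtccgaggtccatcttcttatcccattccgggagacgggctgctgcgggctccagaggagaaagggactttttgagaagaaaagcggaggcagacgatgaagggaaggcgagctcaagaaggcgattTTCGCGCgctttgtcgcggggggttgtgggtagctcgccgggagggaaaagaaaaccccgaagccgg
Tfdp1 (chr8:13338501-13338800, plus strand): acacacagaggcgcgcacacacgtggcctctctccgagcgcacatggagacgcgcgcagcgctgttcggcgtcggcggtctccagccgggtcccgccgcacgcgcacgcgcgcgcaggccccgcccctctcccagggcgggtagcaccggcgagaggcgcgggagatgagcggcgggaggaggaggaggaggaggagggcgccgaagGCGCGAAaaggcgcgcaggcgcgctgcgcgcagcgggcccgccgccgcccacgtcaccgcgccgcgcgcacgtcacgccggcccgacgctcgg
E2f8 (chr7:48881547-48881846, minus strand): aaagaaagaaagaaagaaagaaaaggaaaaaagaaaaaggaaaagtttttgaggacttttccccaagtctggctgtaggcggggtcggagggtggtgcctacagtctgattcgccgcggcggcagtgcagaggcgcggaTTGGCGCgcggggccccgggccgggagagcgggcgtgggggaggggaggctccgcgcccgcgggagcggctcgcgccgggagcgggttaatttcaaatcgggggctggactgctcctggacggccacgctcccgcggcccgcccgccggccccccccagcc
The motif was in at least 1 window of 6 of the 8 members: Rbl1, Tfdp1, E2f8, E2f2, E2f3 and E2f7. Counted by window, it was in 7 of the 11 windows of the members, against 9.57% of all 32851 promoter windows. The 2 windows of Tfdp1 overlap and hold the same motif, which is counted in each. The motif was also in 31 of 48 windows (64.58%) of the G1/S target genes of E2F described below. The windows of E2f1 and Rbl2 had no match, and the RefSeq start of E2f1 lies inside the gene as GENCODE annotates it. Members with the motif included genes that were called higher and genes that were not, and a match is a string of letters, not a measured binding site.

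Of the 10 members, 4 rose in CKO stem cells, E2f4, Tfdp1, Rbl1 and E2f8, and 0 fell, against 12.6% of all tested genes called higher and 33.8% called lower. The median change of the 10 was 0.27, against -0.26 for all genes. The activating and the repressing members differed in their counts: 0 of 3 activators were called, against 3 of 6 repressing members (E2f4, E2f8 and Rbl1). This difference depended on the scaling: with the authors' scaling limma called 2 of 3 activators and 3 of 6 repressing members higher. The authors' deposited table called 2 of 3 activators and 5 of 6 repressing members higher. The medians of these classes were close, 0.25 for the activators and 0.30 for the repressing members. Erythroid markers rose and most stem cell markers fell in the same libraries, with the values given with the markers below. In bulk samples a shift in the cells present cannot be told apart from a change of RNA per cell. No test was made of the difference between the classes, since the members were chosen by name with earlier results known.

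**Figure D1:**
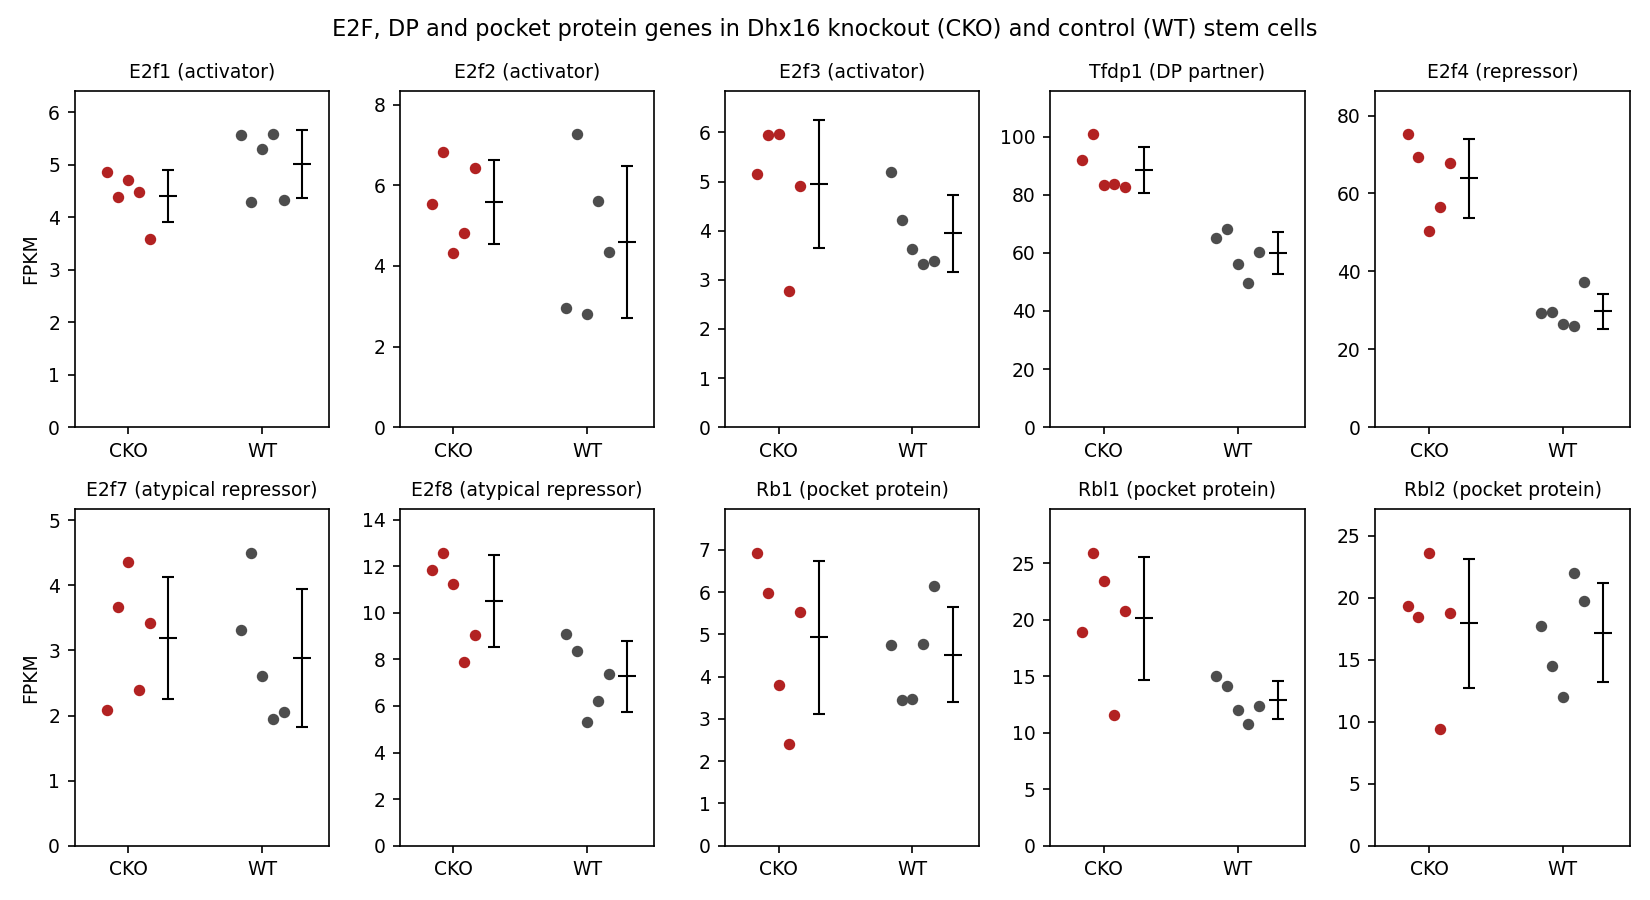
FPKM of the 10 family genes in each library, CKO (red) left of WT (grey), with the mean and SD of 5 libraries as a black bar beside the points; each panel has its own axis from 0. The CKO and WT points separate fully for E2f4 and Tfdp1 and overlap for the other 8 genes.

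E2f4, the main repressing E2F of resting cells, showed the largest change. It was at 75.16, 69.34, 50.24, 56.60 and 67.87 FPKM in CKO libraries, against 29.19, 29.61, 26.51, 26.09 and 37.31 FPKM in WT libraries. The lowest CKO library was above the highest WT library, a separation that 7.45% of all tested genes showed in this direction. E2f4 averaged 63.8 ± 10.1 FPKM in CKO and 29.7 ± 4.51 FPKM in WT (SD, n = 5 each), a change of 1.07 (standard error 0.13, limma adjusted p = 0.000112). That is 1.34 above the median change of all genes. The gene (ENSMUSG00000014859, mm10 chromosome 8, 105297663 to 105305370, plus strand) overlaps no other annotated gene. The genes whose log2 profile over the 10 libraries lay closest to that of E2f4, each centred on its own mean, were Slc43a1, Pigq and Fech, with root mean square differences of 0.117, 0.117 and 0.133. Slc43a1 encodes an amino acid transporter, Pigq a subunit of the enzyme that starts GPI anchor synthesis, and Fech ferrochelatase, the last enzyme of haem synthesis and 1 of the erythroid markers below. The closest member by this measure was Tfdp1 at 0.310, at rank 370 among all tested genes.

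Tfdp1 (ENSMUSG00000038482, mm10 chromosome 8, 13338751 to 13378448, plus strand), the DP partner, was the most abundant member per length in both groups. It was at 92.01, 100.75, 83.49, 83.67 and 82.80 FPKM in CKO libraries, against 65.05, 68.29, 56.12, 49.71 and 60.20 FPKM in WT libraries. All CKO libraries were above all WT libraries, and the means were 88.5 ± 7.80 and 59.9 ± 7.33 FPKM in CKO and WT (SD, n = 5 each). Tfdp1 changed by 0.56 (standard error 0.11, limma adjusted p = 0.00137). For Tfdp1 and for E2f4 the exact two-sided permutation p was 0.00794, the smallest that 5 against 5 libraries allow. Tfdp2, which encodes the other DP partner and is no member of the chosen set, was at 22.3 ± 2.18 FPKM in CKO and 24.0 ± 1.37 FPKM in WT (change -0.10, limma adjusted p = 0.389). The ratio of Tfdp1 to Tfdp2 within a library, which no scaling of libraries can alter, was 3.55 to 5.09 in CKO and 2.11 to 2.96 in WT libraries, without overlap.

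The activating genes were all at low levels and none passed the test. E2f1 was at 4.86, 4.38, 4.72, 4.48 and 3.58 FPKM in CKO libraries, against 5.56, 4.29, 5.31, 5.58 and 4.33 FPKM in WT libraries. The libraries of the groups lay among each other, and the change of -0.15 had a 95% interval of -0.42 to 0.11 (limma adjusted p = 0.326). Its sign turned to 0.17 and 0.14 under median-of-ratios factors and the authors' scaling. E2f2 was at 5.53, 6.82, 4.33, 4.82 and 6.42 FPKM in CKO libraries, against 2.96, 7.26, 2.80, 5.60 and 4.35 FPKM in WT libraries. Its WT libraries spread more widely than its CKO libraries and enclosed all of them (change 0.28, 95% interval -0.18 to 0.75, limma adjusted p = 0.298). E2f3 was at 5.16, 5.95, 5.96, 2.78 and 4.91 FPKM in CKO libraries, against 5.19, 4.21, 3.62, 3.32 and 3.38 FPKM in WT libraries. Here 1 CKO library, CKO12, was below all others, and the change was 0.25 (95% interval -0.15 to 0.64, limma adjusted p = 0.281). Without CKO12 the change of E2f3 was 0.40 and was called (limma adjusted p = 0.0345). Median-of-ratios factors and the authors' scaling likewise brought E2f3 past the threshold (limma adjusted p = 0.0144 and 0.0369), where 26.8% and 23.8% of all genes were called higher. The authors' scaling brought E2f2 past it by a small margin (limma adjusted p = 0.04998).

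The atypical repressors E2f7 and E2f8, each of which carries a pair of DNA-binding domains, stood at different levels. E2f8 (ENSMUSG00000046179) lies at 48866429 to 48881596 on the minus strand of mm10 chromosome 7. It was at 11.85, 12.57, 11.24, 7.90 and 9.03 FPKM in CKO libraries, against 9.07, 8.35, 5.33, 6.22 and 7.39 FPKM in WT libraries. The 3 highest libraries were CKO, and the lowest CKO libraries lay among the WT values. The means were 10.5 ± 1.97 FPKM in CKO and 7.27 ± 1.52 FPKM in WT (SD, n = 5 each), and E2f8 changed by 0.48 (standard error 0.16, limma adjusted p = 0.0291, exact two-sided permutation p = 0.0397). This call was lost without WT4, WT5, CKO7, CKO8 or CKO9 (limma adjusted p = 0.0657, 0.0697, 0.0694, 0.0731 and 0.0572) and with equal totals (limma adjusted p = 0.154). E2f7 was at 2.08, 3.67, 4.36, 2.40 and 3.43 FPKM in CKO libraries, against 3.32, 4.50, 2.61, 1.94 and 2.06 FPKM in WT libraries, and its groups overlapped over nearly the whole range (change 0.12, 95% interval -0.33 to 0.57, limma adjusted p = 0.659). Exons of both genes overlap annotated genes on the other strand (1700020G17Rik and Gm2788), whose reads cannot be told apart here, and the strand setting of the counting is not stated.

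Of the pocket protein genes, Rbl1 rose and Rb1 and Rbl2 were not called. Rbl1 (ENSMUSG00000027641) lies at 157145893 to 157204534 on the minus strand of mm10 chromosome 2. Rbl1, whose p107 protein is made as cells enter the cycle, was at 18.95, 25.92, 23.39, 11.58 and 20.77 FPKM in CKO libraries, against 15.01, 14.10, 12.05, 10.78 and 12.37 FPKM in WT libraries. All CKO libraries but CKO12 were above all WT libraries. The means were 20.1 ± 5.46 FPKM in CKO and 12.9 ± 1.69 FPKM in WT (SD, n = 5 each), and Rbl1 changed by 0.57 (standard error 0.19, limma adjusted p = 0.0249, exact two-sided permutation p = 0.0397). The call was lost without WT5, CKO8, CKO9 or CKO13 (limma adjusted p = 0.0617, 0.0636, 0.0568 and 0.0527) and with equal totals (limma adjusted p = 0.101), and without CKO12 the change was 0.75 (limma adjusted p = 0.00108). Rbl2, the p130 gene that is most linked to resting cells, was at 19.33, 18.43, 23.61, 9.44 and 18.79 FPKM in CKO libraries, against 17.69, 14.48, 11.99, 22.00 and 19.70 FPKM in WT libraries. Its highest and its lowest library were both CKO (change 0.03, 95% interval -0.45 to 0.52, limma adjusted p = 0.915). Rb1 was at 6.93, 5.98, 3.81, 2.41 and 5.52 FPKM in CKO libraries, against 4.76, 3.44, 3.47, 4.78 and 6.15 FPKM in WT libraries. Its CKO libraries likewise spread on both sides of the WT libraries (change 0.07, 95% interval -0.43 to 0.56, limma adjusted p = 0.831). With equal totals the signs of Rb1 and Rbl2 turned, to -0.053 and -0.10, and these intervals leave room for a rise or a fall of moderate size. Exons of Rb1 overlap those of Rcbtb2 and Lpar6, and exons of Rbl2 overlap those of Aktip, on the other strand, so that their values are less certain than those of E2f4 and Tfdp1.

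The order of the levels was much the same in both groups. In CKO libraries the mean FPKM ran from Tfdp1 through E2f4, Rbl1, Rbl2, E2f8, E2f2, E2f3, Rb1 and E2f1 to E2f7 at 3.19 ± 0.937 FPKM. In WT libraries it ran from Tfdp1 through E2f4, Rbl2, Rbl1, E2f8, E2f1, E2f2, Rb1 and E2f3 to E2f7 at 2.89 ± 1.05 FPKM. Tfdp1 and E2f4 stood clear of each other and of all lower members in both groups. Rbl1 and Rbl2 overlapped in both groups, and E2f1, E2f2, E2f3, Rb1 and E2f7 could not be ranked, since the ranges of neighbours among them overlapped in both groups.

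The balance between E2f4 and the activators was read within each library. E2f4 over the sum of E2f1, E2f2 and E2f3 was 4.83, 4.04, 3.35, 4.69 and 4.55 in CKO libraries, against 2.13, 1.88, 2.26, 1.80 and 3.09 in WT libraries. Every CKO library was above every WT library, with means of 4.29 ± 0.606 in CKO and 2.23 ± 0.516 in WT (SD, n = 5 each). Rbl1 over Rbl2 was 0.980 to 1.41 in CKO and 0.490 to 1.005 in WT libraries, with a small overlap. E2f8 over E2f7 was 2.58 to 5.70 in CKO and 1.86 to 3.59 in WT libraries and overlapped widely. E2f4 over Rbl2 was 2.13 to 5.996 in CKO and 1.19 to 2.21 in WT libraries, where only CKO9 fell within the WT range. These ratios are free of library scaling, but not of shifts that depend on exon length, and are given without a test. Of the 3 classes of exon length described below, E2f4 lay in the shortest, E2f1 and E2f2 in the middle, and E2f3 and Rbl2 in the longest. The part of exon length in these ratios was not tested.

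**Figure D2:**
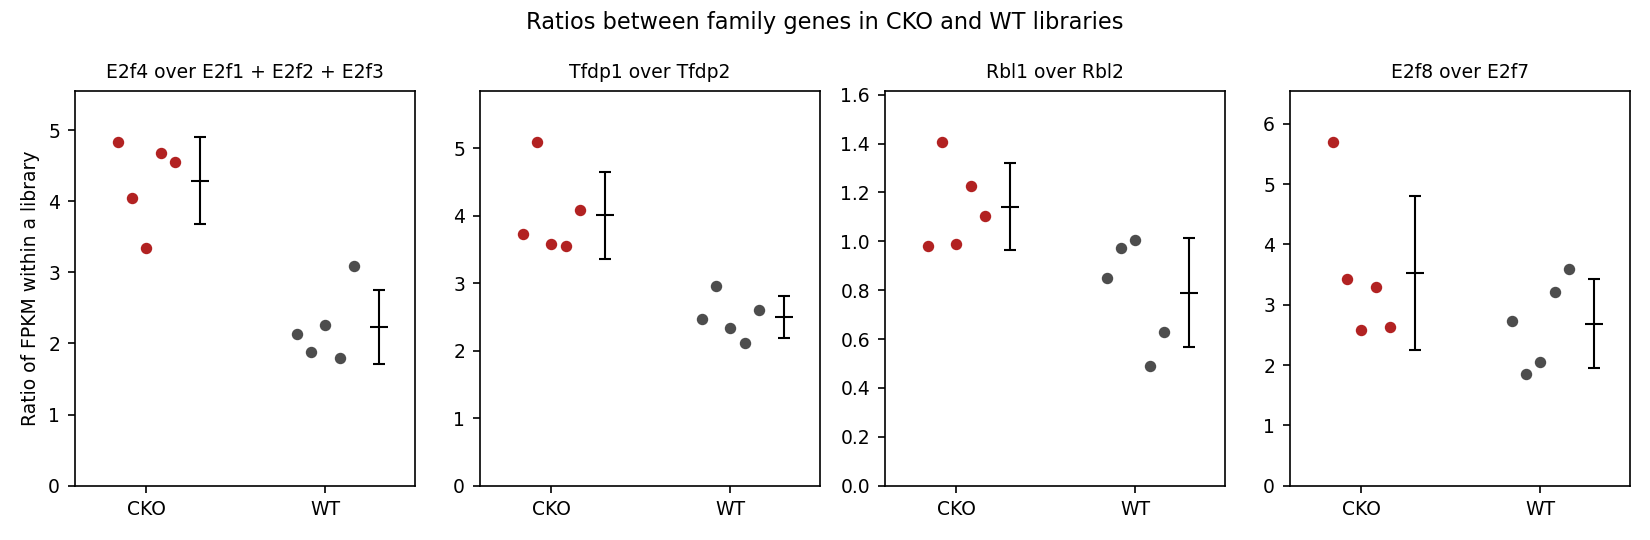
Ratios of FPKM between family genes within each library, CKO (red) left of WT (grey), with the mean and SD of 5 libraries beside the points. The ratio of E2f4 to the activators is 3.35 or more in CKO and 3.09 or less in WT libraries, and the ratio of Tfdp1 to Tfdp2 also separates, while Rbl1 over Rbl2 and E2f8 over E2f7 overlap.

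Scaling moved all members together. Over the 5 scalings the change of E2f4 ranged from 0.93 to 1.45 and that of Tfdp1 from 0.42 to 0.94, and these 2 members were called higher in every scaling, as were 9.1% of all tested genes. The authors' deposited table, made with DESeq2, called 8 of the 10 members higher and 0 lower, against 17.1% and 11.5% of its genes with an adjusted p. In the authors' deposited table the log2 fold changes were 1.51 for E2f4, 0.98 for Tfdp1, 0.94 for Rbl1 and 0.93 for E2f8. For E2f3, E2f7, E2f2 and Rb1 they were 0.73, 0.69, 0.66 and 0.65 in the authors' deposited table, with adjusted p-values of 0.000711, 0.0257, 0.0439 and 0.000947 from DESeq2. Only Rbl2 and E2f1, at 0.37 and 0.23, were not called in the authors' deposited table (DESeq2 adjusted p = 0.225 and 0.309). Over the same genes the authors' fold changes had a median 0.35 above that of the FPKM values. With that shift, limma called E2f3 and E2f2 of the 4 members that only the authors called, and gave adjusted p-values of 0.174 and 0.256 for E2f7 and Rb1.

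**Figure D3:**
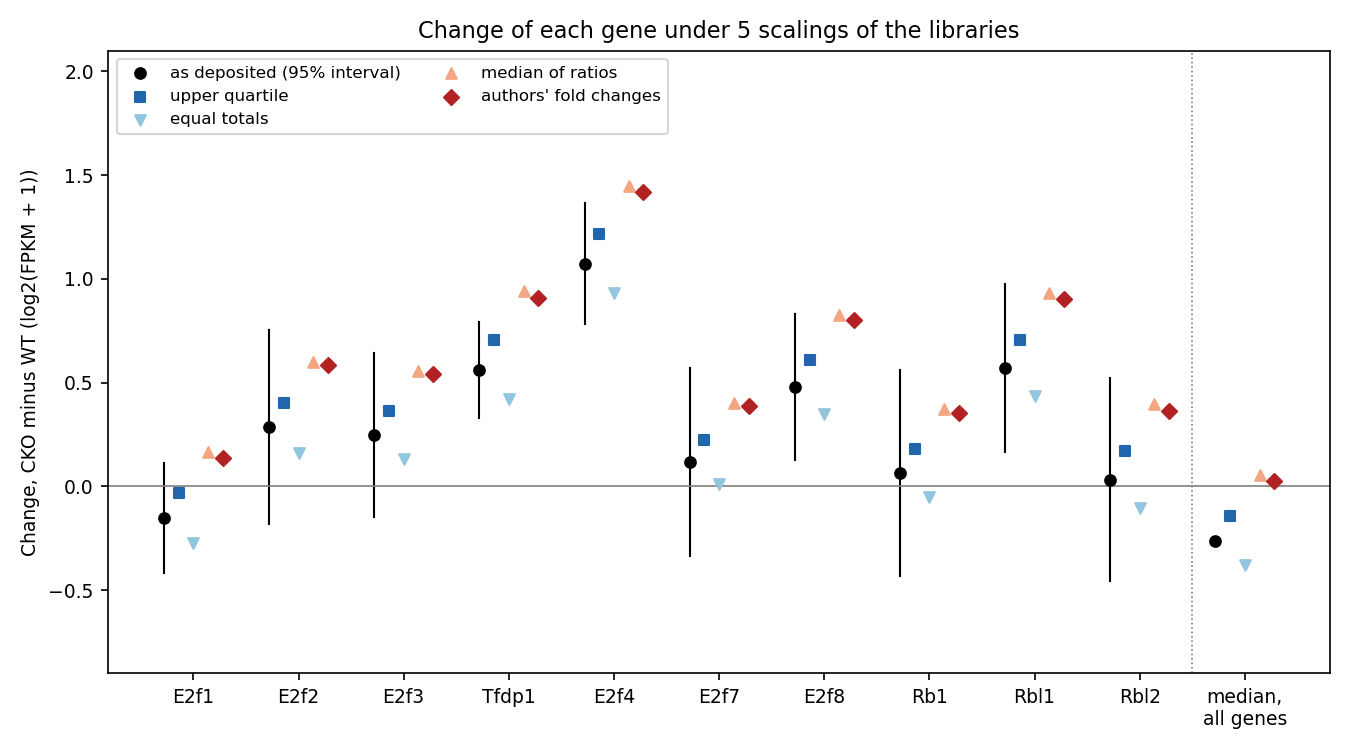
Change of each gene (CKO minus WT, log2(FPKM + 1)) under 5 scalings of the libraries, with the median of all tested genes at the right; black lines are 95% intervals of the fit to the values as deposited. E2f4 lies between 0.93 and 1.45 and Tfdp1 between 0.42 and 0.94, while E2f1, Rb1 and Rbl2 fall on both sides of 0.

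CKO12 held the lowest CKO value of 5 members, E2f3, E2f8, Rb1, Rbl1 and Rbl2. With the tested genes split into 3 equal classes by exon length, all 5 lay in the longest class, which also holds E2f7. CKO12 was the lowest of the 10 libraries over that class as a whole, with a median of -0.33 (log2, relative to each gene's mean), against -0.11 over the shortest class. The median change of CKO against WT was -0.34 in the longest class and -0.13 in the shortest class. With each library's trend on exon length removed, an alternative added after the data were seen, the changes of E2f8 and Rbl1 were 0.53 and 0.63 (limma adjusted p = 0.0124 and 0.0121), and E2f3, E2f7, Rb1 and Rbl2 were still not called.

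Genes that E2F factors drive rose widely. Of 50 G1/S target genes of E2F, 44 rose and 0 fell, with a median change of 0.97, and 36 of them had every CKO library above every WT library. Of all tested genes 12.6% were called higher, 33.8% were called lower and 7.45% had every CKO library above every WT library. The lists hold textbook targets, were chosen with earlier results of these data known, and share some genes with each other. Cyclin E1 (Ccne1), which with CDK2 phosphorylates pocket proteins, had the largest rise, at 52.5 ± 9.16 FPKM in CKO and 8.85 ± 5.02 FPKM in WT (SD, n = 5 each, change 2.58, limma adjusted p = 0.00021). The ribonucleotide reductase genes Rrm2 and Rrm1, which supply deoxynucleotides, changed by 1.98 and 1.67 (limma adjusted p = 9.59e-05 and 3.03e-05). Under all 5 scalings 38 of the 50 were higher, against 9.1% of all tested genes. With the values as deposited the only target with a negative change was Pole, the gene of a replicative polymerase. Pole was at 16.5 ± 3.54 FPKM in CKO and 20.6 ± 3.01 FPKM in WT (limma adjusted p = 0.123) and was named after its value was seen. With equal totals it was called lower (limma adjusted p = 0.0382), as were 40.9% of all genes. Its sign turned under median-of-ratios factors and the authors' scaling, to 0.05 and 0.01. The authors' deposited table called all 50 targets higher, against 17.1% of its genes with an adjusted p. Pole was among them (log2 fold change 0.70, DESeq2 adjusted p = 0.00345). Of 20 G2/M genes, most of them known targets of DREAM and FOXM1, 19 rose, against 12.6% of all tested genes, and 0 fell, with a median of 0.98. The mitotic genes Plk1, Ube2c and Ccna2 led them with changes of 1.65, 1.58 and 1.53 (limma adjusted p = 5.36e-05, 6.92e-05 and 3.17e-05).

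**Figure D4:**
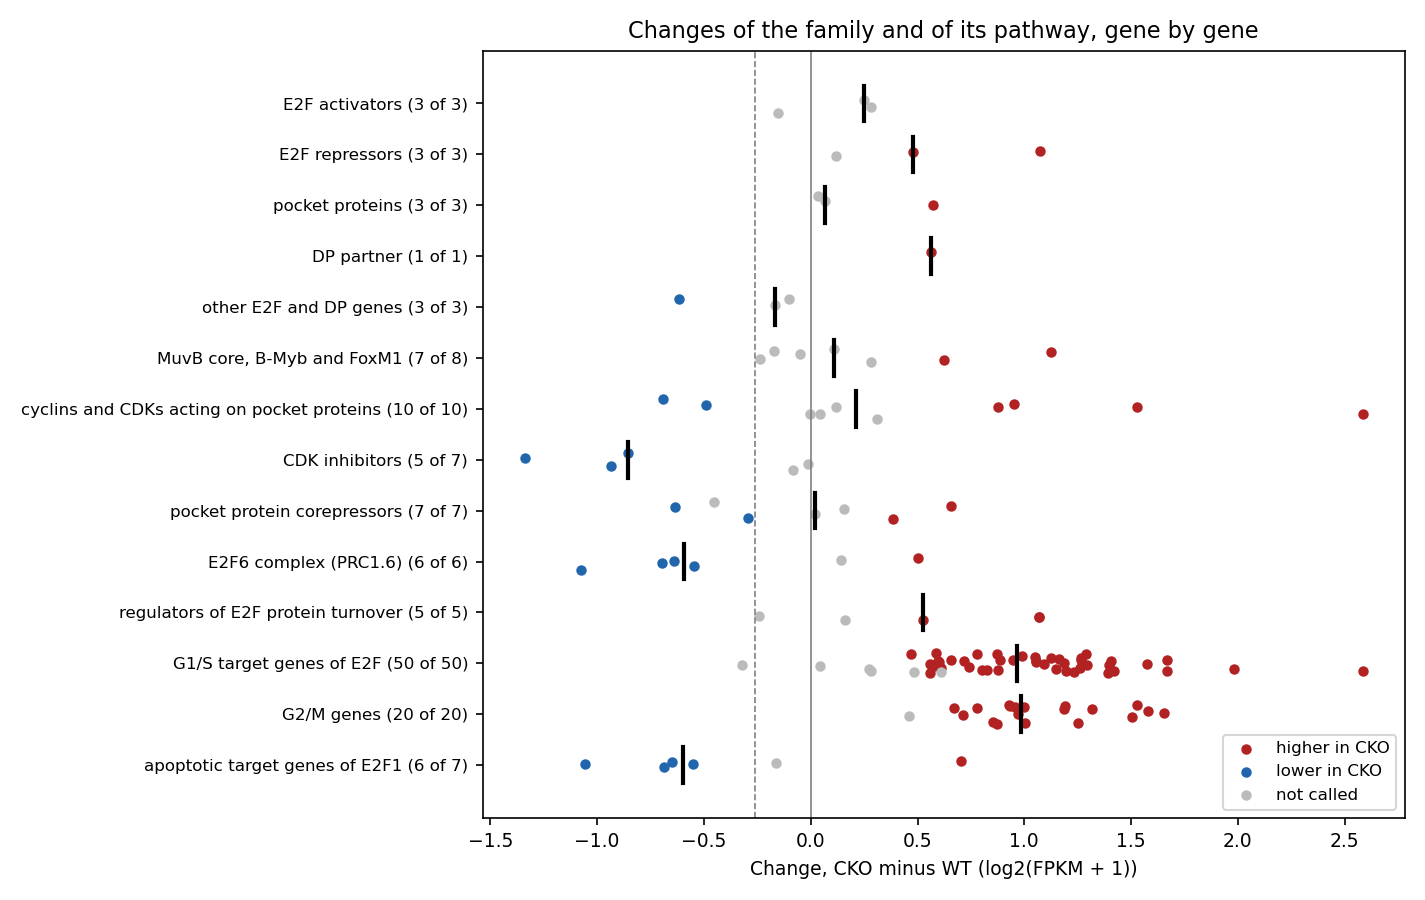
Change of each tested gene (CKO minus WT, log2(FPKM + 1)) in the family and in the lists of its pathway, with the number tested of the number listed; black bars are list medians, the solid line is 0 and the dashed line is the median of all tested genes, -0.26. The G1/S and G2/M lists lie almost wholly to the right of 0, at medians of 0.97 and 0.98, while the activating members stay between -0.15 and 0.28.

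Upstream of the pocket proteins, a list of 10 genes held cyclins, CDKs and a phosphatase gene. Of these 10 genes, 4 rose (Ccne1, Ccna2, Cdk4 and Ccne2) and 2 fell (Cdk6 and Ccnd2), against 12.6% and 33.8% of all tested genes. The authors' deposited table called 8 of the 10 higher and 0 lower. Cdk2 was called higher under 3 of the 5 scalings, with changes of 0.26 to 0.50. Ccne2, Cdk6, Ccnd2 and Cdk2 were named after their values were seen. Cdk4, a partner of the D cyclins, was at 554 ± 55.4 FPKM in CKO and 286 ± 31.5 FPKM in WT (change 0.95, limma adjusted p = 9.12e-05). Cdk6, the other D cyclin partner, was at 43.4 ± 8.42 FPKM in CKO and 70.0 ± 7.91 FPKM in WT (change -0.69, limma adjusted p = 0.00166), and Ccnd2 at 184 ± 20.8 FPKM in CKO and 259 ± 37.7 FPKM in WT (change -0.49, limma adjusted p = 0.00755). Both falls lost their call under median-of-ratios factors and the authors' scaling (limma adjusted p = 0.142 and 0.0623 for Cdk6, 0.554 and 0.407 for Ccnd2). Of the 7 CDK inhibitor genes 5 were tested and 3 fell, each under all 5 scalings, as did 12.6% of all tested genes. Cdkn1c, the p57 gene of quiescent stem cells, was at 4.02 ± 1.56 FPKM in CKO and 11.2 ± 1.96 FPKM in WT (change -1.34, limma adjusted p = 0.00107). Cdkn1b, the p27 gene, was at 3.91 ± 0.627 FPKM in CKO and 8.46 ± 1.71 FPKM in WT (change -0.94, limma adjusted p = 0.000492), and Cdkn2d changed by -0.86 (limma adjusted p = 0.000234).

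The partners of the family changed unevenly. E2f5, a further repressing E2F outside the chosen set, fell to 2.42 ± 0.516 FPKM in CKO, against 4.23 ± 0.557 FPKM in WT (SD, n = 5 each, change -0.62, limma adjusted p = 0.00376), but was not called under median-of-ratios factors and the authors' scaling (limma adjusted p = 0.119 and 0.0686). E2f6, a repressor that works without pocket proteins, changed by -0.17 and was not called (limma adjusted p = 0.304). Of all tested genes 12.6% were called higher. Among 8 genes of the MuvB core, B-Myb and FoxM1, 7 were tested and 2 rose. These were Mybl2, the B-Myb gene, at 19.4 ± 3.79 FPKM in CKO and 8.50 ± 2.57 FPKM in WT (limma adjusted p = 0.000837), and Foxm1 at 4.73 ± 0.720 FPKM in CKO and 2.71 ± 0.359 FPKM in WT (limma adjusted p = 0.00211). The core subunits Lin9, Lin37, Lin52, Lin54 and Rbbp4 had changes of -0.24 to 0.28 and were not called with the deposited values. Rbbp4 and Lin9 were called higher under 3 of the 5 scalings, with changes of 0.43 and 0.24 with upper-quartile factors, 0.66 and 0.45 with median-of-ratios factors and 0.63 and 0.43 with the authors' scaling. The authors' deposited table called 5 genes of this list higher, Rbbp4, Lin9 and Lin54 among them, and 0 lower. Of 7 corepressors of pocket proteins 2 rose (Suv39h1 by 0.66 and Hdac1 by 0.39) and 2 fell (Arid4a by 0.63 and Kdm5a by 0.29 on the log2 scale). The share of all tested genes called lower was 33.8%, and the authors' deposited table called 3 corepressors higher and 0 lower. Suv39h1 alone of these 4 kept its call under all 5 scalings, and the sign of Kdm5a turned under median-of-ratios factors and the authors' scaling, to 0.08 and 0.05.

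In the E2F6 complex PRC1.6, 4 of 6 genes fell (Max, Mga, Ring1 and Rnf2, with changes of -1.08, -0.70, -0.64 and -0.54) and L3mbtl2 rose by 0.50, but Max alone kept its call under all 5 scalings. Of all tested genes 33.8% were called lower, and the authors' deposited table called 2 of the 6 higher and 1 lower. Of 5 regulators of E2F protein turnover 3 rose, against 12.6% of all tested genes. The authors' deposited table called 4 of the 5 higher and 0 lower. Ccnf, the cyclin F gene whose protein marks E2F factors for breakdown, was at 26.8 ± 6.03 FPKM in CKO and 12.1 ± 1.78 FPKM in WT (change 1.07, limma adjusted p = 0.000337). Fbxo5, the EMI1 gene and an inhibitor of the anaphase-promoting complex, changed by 1.07 and Skp2 by 0.53 (limma adjusted p = 0.000271 and 0.0223). Skp2 lost its call with equal totals (change 0.40, limma adjusted p = 0.096), and with single libraries left out 2 or 3 of the 5 were called higher. Of 7 apoptotic target genes of E2F1, 6 were tested and 4 fell, against 33.8% of all tested genes, and the authors' deposited table called 1 lower. Bbc3, the PUMA gene, was at 6.05 ± 1.95 FPKM in CKO and 13.4 ± 2.68 FPKM in WT (change -1.06, limma adjusted p = 0.00203) and fell under all 5 scalings.

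Markers of some other cells and most markers of the sorted cells moved with the genotype, while granulocyte markers and most bone matrix and stroma markers were not called. All 12 erythroid markers rose, and their summed level was 1006 to 1519 FPKM in CKO and 230.1 to 585.8 FPKM in WT libraries. All 4 globin genes rose, with sums of 1214 to 8151 FPKM in CKO and 216 to 2863 FPKM in WT libraries. Of 12 stem cell markers all were measured and 10 fell, with sums of 572 to 891 FPKM in CKO and 858 to 1228 FPKM in WT libraries. Kit and Ly6a, which encode the sort markers c-Kit and Sca-1, were not among those that fell. Kit was at 78.25 to 158.1 FPKM in CKO and 124.36 to 181.57 FPKM in WT libraries. Ly6a was at 162.25 to 259.31 FPKM in CKO and 126.24 to 317.0 FPKM in WT libraries. All 8 megakaryocyte and platelet markers fell, with sums of 718 to 1412 FPKM in CKO and 1528 to 2312 FPKM in WT libraries, and all 8 monocyte and macrophage markers fell, with sums of 841 to 2539 FPKM in CKO and 1633 to 6826 FPKM in WT libraries. None of 8 granulocyte markers was called, at sums of 8546 to 40932 FPKM in CKO and 9657 to 74372 FPKM in WT libraries, and 1 of 8 bone matrix and stroma markers fell, at sums of 4564 to 47853 FPKM in CKO and 3214 to 66060 FPKM in WT libraries. Of 8 B lymphocyte markers 2 were tested and both fell, with sums of 20.7 to 34.7 FPKM in CKO and 34.9 to 59.6 FPKM in WT libraries. Of 8 T and NK lymphocyte markers 3 were tested and 1 fell, with sums of 68.2 to 129 FPKM in CKO and 64.1 to 167 FPKM in WT libraries. No marker of any list was at 0 in all libraries. The part of these markers in the changes of the family was not tested.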

How the data were processed

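The deposited file is 1 table of 52097 genes with 10 library columns beside the authors' own test results. Column names gave each library's group, but their numbers match no sample title. The submitters' processing notes name Bowtie 0.12.9, Cufflinks 2.1.1, HTSeq and mm10, with no roles, and the strand setting is not stated. The header gives no unit for the deposited library columns, which were read as FPKM because of their 2 decimals and unequal totals. Per the file headers, whose column names are those of DESeq2, the mean of normalized counts (a signal), the log2 fold changes, the test score (Wald statistic) and the p-values were made by the authors.

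Genes averaging 1 FPKM or more over the 10 libraries were tested with limma 3.58.1 (trend and robust options, R 4.3.3) on log2(FPKM + 1), with genotype as the only term and the values as deposited. This filter does not look at the groups and keeps members under 10 FPKM. The step was tested on simulated data. Alternatives were pseudocounts of 0.1 and 0.5, no filter, 10 FPKM in 5 libraries, 4 scalings, plain limma, library weights, each library left out and a length correction. Gene coordinates and exon lengths come from GENCODE M21 (mm10), to which all 52097 IDs matched, and promoters from RefSeq (GRCm38.p6). Members and lists were chosen with earlier results of these data known, and no set test was made. Beyond the members, the text names the 3 called genes of largest change in each list, any gene of a list of 8 or fewer, and the 3 profiles closest to E2f4, and 1 gene of the apoptotic list is not reported here.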

Additional observations from a re-analysis of the deposited data

Results flagged for a closer look

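In 5 of 132 groups of 5 libraries tested, 1 library stood apart from the rest by more than 0.71 of the group's range, Dixon's limit at 95%, and chance gives about 1 in 20. The ratio of E2f8 to E2f7 was 5.70 in CKO7, far above the other CKO libraries. L3mbtl2 was at 12.84 FPKM in CKO12, far below the other CKO libraries, and Sin3b was at 119.32 FPKM in CKO9, far above them. Tfdp2 was at 26.37 FPKM in WT2 and Mga at 16.77 FPKM in WT5, each far above the other WT libraries. No family member itself was among these 5.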

How the results depend on the processing

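E2f4 and Tfdp1 kept their direction and call under every alternative run. E2f8 and Rbl1 lost their call without a filter on low values (limma adjusted p = 0.0824 and 0.0757, with changes of 0.48 and 0.57) and with equal totals (changes of 0.35 and 0.44). The median-of-ratios and authors' scalings turned E2f1 to 0.17 and 0.14 and brought E2f3 past the threshold at 0.56 and 0.54, and the authors' scaling did so for E2f2 at 0.59. Equal totals turned Rb1 to -0.053 and Rbl2 to -0.10. With 10 FPKM in 5 libraries only E2f4, Rbl1, Rbl2 and Tfdp1 of the 10 could be tested. Calls over all genes were 1771 higher and 4731 lower with the values as deposited, against 3750 and 1796 with median-of-ratios factors and 3334 and 1987 with the authors' scaling, and 2182 were lower with 10 FPKM in 5 libraries, where fewer genes were tested. Over all the other pathway lists, 16 genes were lower, against 5, 6 and 8 under these 3 settings. With equal totals 1 G1/S target was called lower in place of 0.

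Leaving out each library in turn gave changes of -0.20 to -0.09 for E2f1, 0.16 to 0.44 for E2f2, 0.18 to 0.40 for E2f3, 1.01 to 1.16 for E2f4, 0.02 to 0.25 for E2f7, 0.39 to 0.57 for E2f8, -0.055 to 0.25 for Rb1, 0.47 to 0.75 for Rbl1, -0.080 to 0.23 for Rbl2 and 0.50 to 0.61 for Tfdp1. It left 1455 to 1927 genes higher and 4069 to 4720 lower, and 42 to 45 G1/S targets higher. The cause of these shifts was not tested. No paired analysis was possible because the library columns carry other numbers than the sample titles. Depth is unknown, so members near 2 to 7 FPKM have no stated counting error.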
